A study of Mus musculus with 22 samples.

Results

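The nuclear genes of respiratory complex I were followed through mouse preimplantation development, in control embryos and in embryos with knockdown (KD) of the histone variant H2A.Z. They were taken as every gene of the expression table whose symbol starts with Nduf, leaving out symbols with -ps, which mark pseudogenes. This gave 49 of the 55335 genes in the table, after 2 of the 51 symbols that start with Nduf were left out. By role, the 49 genes comprised 7 core subunits, 10 accessory subunits of the matrix arm, 9 of the proximal and 10 of the distal membrane arm, and 8 assembly factors, which are not part of the finished complex. Ndufa4 and Ndufa4l2 kept their names although Ndufa4 is now assigned to complex IV, and Ndufa11b, Ndufb4c and Ndufs6b are annotated as processed pseudogenes.

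Complex I, or NADH:ubiquinone oxidoreductase, is the main entry point of electrons into the respiratory chain of mitochondria. Its matrix arm takes electrons from NADH through a flavin and a chain of iron-sulfur clusters to ubiquinone, and its membrane arm pumps protons. The core subunits of the matrix arm are encoded in the nucleus and those of the membrane arm in mitochondrial DNA, while accessory subunits surround the core and are needed for its assembly and stability. Embryos inherit their mitochondria from the oocyte, and oxygen consumption rises as the blastocyst forms. H2A.Z, encoded by H2afz and H2afv, replaces canonical H2A in nucleosomes next to the start sites of many active genes.

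The study asked how H2A.Z depletion affects early development and gene expression. RNA-seq was performed on 22 libraries, each from 15 pooled embryos with the zona pellucida removed. Both parents were B6D2F1, and the females were superovulated at 8 weeks of age. There were 4 control libraries at each of the 2-cell, morula and blastocyst stages, and 3, 3 and 4 H2A.Z KD libraries in the same order of stages. Embryos were harvested at 43 to 44 h post hCG as 2-cell embryos, at 78 h as morulae and at 94 h as blastocysts. For the KD groups, zygotes had received about 10 pl of mixed siRNAs against H2A.Z at 20 µM, injected 20 to 22 h post hCG. The treatment of the control embryos of these libraries is not given in the sources used here; noninjected embryos are named as controls for quantitative PCR only. The Smart-seq2 method copied polyadenylated RNA into cDNA along its whole length, with 16 to 18 cycles of amplification and no record of the strand, and pairs of 150 bp were read. The study says in general that its experiments were repeated, but the labels do not tell whether the libraries of a group came from separate collections, so the p-values measure the spread between these libraries, which may be technical.

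Values are FPKM, fragments scaled by the length of the gene and by the mapped fragments of the library, which compare levels between genes per length. FPKM carry no counts, so the depth in reads is unknown and no counting interval can be given. The libraries listed 10143 to 12090.0 genes at an FPKM of 1 or more. Fold changes are differences of mean log2(FPKM + 1) after a scaling between libraries, which understates the change of low genes, and were tested with limma over all genes that reached an FPKM of 1 in at least 3 libraries of the comparison, with Benjamini-Hochberg adjustment. A gene is said to have risen or fallen where its adjusted p was under 0.05, and to be a differentially expressed gene (DEG) where its log2 fold change was also beyond 1 in size, that is, more than 2-fold.

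H2afz was examined first, since it encodes H2A.Z, against which the siRNAs were designed. Values of H2afv are not given here. At the 2-cell stage it read 1244, 1236, 905 and 1178 FPKM in the control libraries and 415, 139 and 112 FPKM in the KD libraries. All KD libraries lay below all controls, with a log2 fold change of -2.53 ± 0.38 (SE), which limma did not call (adjusted p = 0.544), while an exact permutation test of both tails gave p = 0.0286, the smallest that the 35 splits of these libraries allow. In morulae it read 1158, 1336, 1511 and 1421 FPKM in controls and 30.3, 25.7 and 29.0 FPKM after KD, a log2 fold change of -5.41 ± 0.17 (SE, limma adjusted p = 9.72e-08). In blastocysts it read 2656, 2431, 1945 and 2055 FPKM in controls and 64.2, 67.2, 53.2 and 57.6 FPKM after KD, a log2 fold change of -5.19 ± 0.20 (SE, limma adjusted p = 3.63e-08). The KD labels therefore matched the level of H2afz in every library, and 1 KD library of 2-cell embryos, replicate 1, held more of it than the others of its group.

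The stage labels were checked against marker genes. The summed FPKM of 5 markers of the 2-cell embryo (Zscan4c, Zscan4d, Zfp352, Tcstv1 and Tcstv3) was 455 ± 123 in control 2-cell embryos, 11.4 ± 5.71 in morulae and 2.12 ± 1.25 in blastocysts (mean ± SD, n = 4), and all 5 fell from the 2-cell to the morula stage. The sum of 4 oocyte genes was 858, 6.88 and 1.91 FPKM in the same order, led by Oosp1 at the 2-cell stage. The 6 trophectoderm markers summed to 2.47, 111 and 1187 FPKM, led by Krt18, with Cdx2 at 1.79 ± 0.765 FPKM in control blastocysts. The 3 inner cell mass markers summed to 3.66, 138 and 148 FPKM, led by Nanog from the morula stage on, and the 4 primitive endoderm markers to 5.10, 14.4 and 13.0. Of 8 genes of cumulus and granulosa cells, Amhr2 was the most abundant in every group, Ptx3 and Fshr were listed at 0 in every library, and the sum did not exceed 14.0 FPKM in any group's mean. The sums of the 2-cell, oocyte and trophectoderm markers thus followed the stage labels, with Cdx2 low among those of the trophectoderm. Single markers of the other lineages did not all move alike in controls. From morula to blastocyst, 1 of 3 inner cell mass markers rose and 1 fell, with log2 fold changes from -1.24 to 1.22. From the 2-cell to the morula stage, 1 of 2 primitive endoderm markers tested rose (3.51) and 1 fell (-2.14).

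In control embryos the complex I genes became far more abundant from stage to stage. The FPKM of the 36 subunits summed to 738, 718, 647 and 680.4 in the 2-cell libraries, 2924, 3370.0, 3718 and 3595 in the morula libraries and 7850.5, 6853, 6237 and 6824 in the blastocyst libraries. No library of a stage reached the range of the next. The 8 assembly factors differed less, with sums of 118 ± 9.10, 173 ± 9.98 and 218 ± 14.4 FPKM (mean ± SD, n = 4 each). Among the subunits, mean levels ranged from 1.08 (Ndufa5) to 93.5 FPKM (Ndufb6) at the 2-cell stage, from 16.5 (Ndufb2) to 299.7 FPKM (Ndufa12) in morulae and from 32.1 (Ndufb2) to 579 FPKM (Ndufb9) in blastocysts. Subunits that sit in 1 complex thus differed more than 10-fold in mRNA level per length at every stage, also in blastocysts, where the median subunit read 180.8 FPKM.

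From the 2-cell to the morula stage, 42 of 47 members tested rose, against 43% of all 13655 genes tested, and 1 fell, against 40.3%. As DEGs, 38 members were higher, against 32.3% of all genes. The median log2 fold change of the members was 2.34, and that of all genes 0.10, which scaling by the upper quartile moved by 0.25. All core and membrane arm subunits tested rose, 7 of 7, 9 of 9 and 10 of 10, and 8 of 10 of the matrix arm. The largest rise was that of Ndufs6, a zinc-binding subunit of the matrix arm named here after its values were seen. It read 2.53, 1.79, 0.851 and 1.08 FPKM in 2-cell embryos and 96.6, 111, 142 and 123 in morulae, a log2 fold change of 5.56 ± 0.25 (SE, limma adjusted p = 2.12e-09). Ndufa5, a small subunit at the base of the matrix arm and likewise singled out for its values, read 0.852, 0.856, 1.45 and 1.16 FPKM and then 39.8, 46.5, 65.8 and 62.7 (4.70 ± 0.22, SE, limma adjusted p = 2.58e-09).

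The 1 member that fell was Ndufaf5, an assembly factor that hydroxylates the core subunit Ndufs7. It read 27.5, 27.1, 19.9 and 24.1 FPKM in control 2-cell embryos and 7.36, 8.66, 8.64 and 5.82 FPKM in control morulae. These ranges did not overlap, and the log2 fold change was -1.58 ± 0.20 (SE, limma adjusted p = 1.03e-05). Its target Ndufs7 moved the opposite way, from 9.17, 7.13, 7.55 and 7.07 to 188, 199, 178 and 150.2 FPKM (4.35 ± 0.16, SE, limma adjusted p = 4.87e-10). The 4 members tested that did not pass, named because they are so few, were Ndufaf4 (-0.38 ± 0.20, SE), Ndufa2 (-0.21 ± 0.21, with the opposite sign under upper quartile scaling), Ndufab1 (0.22 ± 0.23) and Ndufs6b (0.31 ± 0.17). Ndufa2, a subunit of the NADH-oxidizing end of the complex, and Ndufb6 of the distal membrane arm, both singled out after the values were seen, were among the highest subunits in 2-cell embryos. Ndufa2 stood at 83.0 ± 12.0 FPKM there and at 71.9 ± 9.99 FPKM in morulae. The assembly factor Ndufaf2 read 12.8, 11.8, 1.12 and 9.00 FPKM in the 2-cell controls and 17.2, 16.8 and 1.08 FPKM in 2-cell KD embryos, where replicate 4 of either group was far below the rest.

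**Figure D1:**
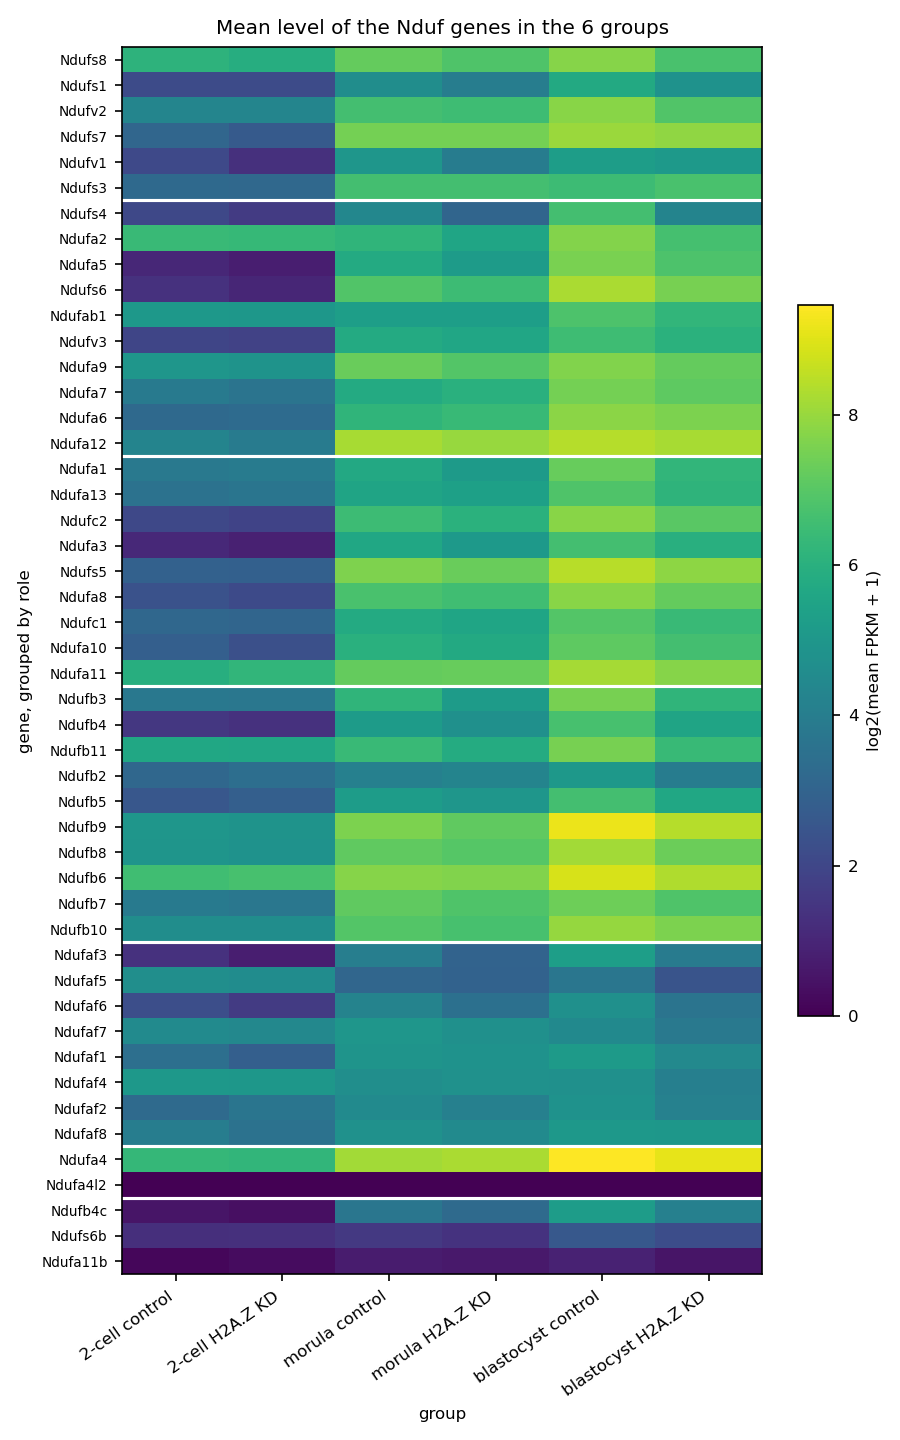
Mean FPKM of 48 of the 49 Nduf genes in the 6 groups, as colour on a log2(FPKM + 1) scale, with genes in order of role and, within a role, of their fold change in blastocysts; white lines separate the roles. Nearly all genes brighten from left to right by stage, with the summed subunits at 696, 3402 and 6941 FPKM in control 2-cell embryos, morulae and blastocysts, while Ndufaf5 is highest in 2-cell embryos and Ndufa4l2 stays dark.

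From the morula to the blastocyst stage, 36 of 47 members rose, against 27.6% of 11849 genes, and 1 fell, against 28.8%. As DEGs, 23 were higher, against 13.4%. The median was 0.963 for the members and -0.025 for all genes. All 9 proximal and 9 of 10 distal membrane arm subunits rose, and 2 of 8 assembly factors, a share near that of all genes. A difference between the roles was not tested. The largest rise among the 47 was that of Ndufs4, an accessory subunit that holds the NADH-oxidizing module in place, from 17.8, 19.3, 22.7 and 19.9 FPKM in control morulae to 133, 81.9, 82.2 and 98.1 FPKM in control blastocysts (2.14 ± 0.21, SE, limma adjusted p = 6.6e-06). The assembly factors that rose were Ndufaf3 (1.20 ± 0.17) and Ndufaf5 (0.53 ± 0.18, not called without any 1 of morula controls 1 and 8 and blastocyst controls 1 and 4). Ndufaf7, an assembly factor with methyltransferase activity that is named because it was the 1 member to fall, read 29.3, 30.0, 27.4 and 34.1 FPKM in morulae and 21.5, 25.5, 22.4 and 16.1 FPKM in blastocysts. Its lowest morula library stood above its highest blastocyst library, the log2 fold change was -0.58 ± 0.18 (SE, limma adjusted p = 0.0161), and the call was lost without blastocyst control replicate 6. Of the core subunits, 5 of 7 rose, while Ndufs3 (-0.20 ± 0.21, SE) and Ndufv1 (0.19 ± 0.20) did not pass.

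At the 2-cell stage no member was called after KD, in a test that did not call H2afz either. Of 45 members tested, limma called 0 in either direction, as it called 0% of the 12160 genes tested. At an unadjusted p under 0.05 there were 4 members, all with lower values after KD, and 701 genes in all (8.89% of members, against 5.76% of all genes). In 1 fit over all 6 groups, H2afz passed limma (adjusted p = 0.000301). That fit called 0 members at this stage, where it called 0.164% of the 12160 genes lower and 0.214% higher. Changes of members too small for these tests may have been missed. The 4 members with an unadjusted p under 0.05 were Ndufv1, Ndufaf1, Ndufa10 and Ndufs7, named after their values were seen. Ndufv1, the subunit that binds NADH and the flavin, read 1.83, 3.31, 3.54 and 4.41 FPKM in controls and 0.906, 1.12 and 2.38 FPKM after KD, so the groups overlapped (-0.75 ± 0.27, SE, limma adjusted p = 0.828). Ndufs7, which carries the last iron-sulfur cluster before ubiquinone, read 9.17, 7.13, 7.55 and 7.07 and 4.97, 6.33 and 4.82 FPKM, with no overlap (-0.40 ± 0.18, SE, limma adjusted p = 0.828). The median log2 fold change was -0.005 for the members and 0.004 for all genes, and the summed subunits read 676, 708 and 669 FPKM in the KD libraries, within the range of the controls. Ndufa5, Ndufb4c, Ndufa11b and Ndufa4l2 stayed under the filter here.

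In morulae, 5 of 47 members tested fell after KD, which is 10.6% against 9.05% of 10989 genes, and 0 rose with limma, against 4.22%. At an unadjusted p under 0.05, 8 members were lower and 0 higher, 17% of members against 30.5% of all genes in either direction. As DEGs, 2 members were lower (4.26%, against 2.59% of all genes), and for 15 members all KD libraries lay below all controls (31.9%, against 22.9%) in FPKM as deposited, but for 6 after scaling (12.8%, against 15.9%). The share that fell was thus near that of all genes with all libraries and the scaling used, but not in every alternative given below. The median was -0.132 for the members and 0.015 for all genes. The 36 subunits summed to 2924, 3370.0, 3718 and 3595 FPKM in controls and 2836, 2782 and 2852 FPKM after KD, a ratio of the means of 0.83. The 8 assembly factors summed to 161, 181, 170.1 and 181 and 141, 140.5 and 143 FPKM, a ratio of 0.817. These sums did not overlap as deposited, but after the scaling used for the fold changes both overlapped through control replicate 1, and the ratios were 0.899 and 0.887. Values lay below 0 for 34 members, of which 4 (Ndufa8, Ndufaf5, Ndufb8 and Ndufv3) lay above 0 with upper quartile scaling, and 5 of the 13 above 0 (Ndufa13, Ndufaf1, Ndufb6, Ndufs7 and Ndufv2) lay below 0 without scaling. The count of 5 depended on the processing: it was 10 without scaling (21.3%, against 14.1% of all genes), which moved the median of all genes by -0.101, and 1 without the filter on low FPKM (2.08%, against 0.86%). It was 12 without control replicate 1 (25.5%, against 11.1%) and 3 without KD replicate 2 (6.38%, against 3.82%). Among all genes called in morulae, 31.8% were higher after KD, and 15.3% without scaling.

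The genes that fell in morulae came from 4 of the roles. Ndufv1, the NADH-binding core subunit, read 41.2, 29.0, 24.5 and 25.4 FPKM in controls, where replicate 1 was highest, and 15.7, 13.1 and 15.0 FPKM after KD (-0.85 ± 0.16, SE, limma adjusted p = 0.0102, not called without KD replicate 2). Ndufs4 read 17.8, 19.3, 22.7 and 19.9 FPKM in controls and 8.85, 2.41 and 11.2 FPKM after KD. The KD libraries were spread more than 4-fold, with replicate 2 lowest, and none overlapped the controls (-1.38 ± 0.37, SE, limma adjusted p = 0.0351). This call was lost without any 1 of control replicates 2, 7 and 8 and KD replicates 1 and 2. Ndufb3, a small subunit of the distal membrane arm, read 73.9, 61.2, 75.5 and 75.7 FPKM in controls and 35.2, 32.7 and 38.2 FPKM after KD, a ratio of the means of 0.494 without overlap. Its log2 fold change was -0.87 ± 0.15 (SE, limma adjusted p = 0.00727). Ndufaf3, which helps to build the ubiquinone-binding module, read 13.0, 16.0, 15.6 and 17.0 FPKM in controls and 7.10, 6.68 and 7.13 FPKM after KD, the latter within a narrow range (-0.92 ± 0.17, SE, limma adjusted p = 0.00937). Without the filter on low FPKM, Ndufb3 alone was still called.

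**Figure D2:**
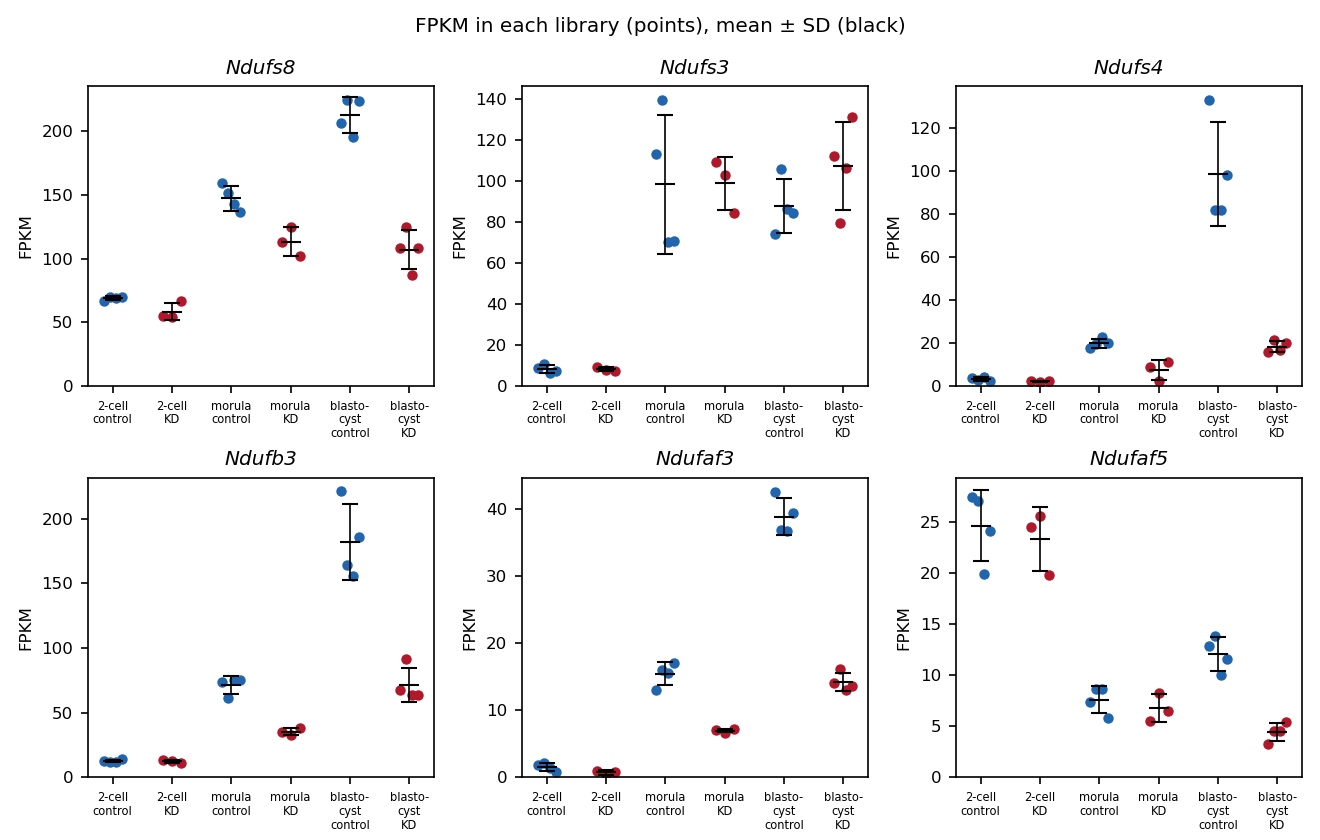
FPKM of 6 members in every library (points; blue, control; red, H2A.Z KD) with mean and SD in black, for the 6 groups on the x axis. In blastocysts the KD libraries of Ndufs4, at 15.7 to 21.3 FPKM, lie below all controls, at 81.9 to 133 FPKM, while those of Ndufs3 overlap them.

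In blastocysts, most complex I genes fell after KD and none rose. Of 47 members tested, 29 fell, which is 61.7% against 19.8% of 11828 genes, and limma called 0 higher, against 16.7%, with 0 higher and 35 lower at an unadjusted p under 0.05 (74.5% of members, against 46% of all genes in either direction). As DEGs, 12 were lower (25.5%, against 7.76%), but 6 without KD replicate 5 (12.8%, against 7%). For 30 members all KD libraries lay below all controls (63.8%, against 20%) in FPKM as deposited, and for 25 after scaling (53.2%, against 19.4%). Values were below 0 for 46 of the 47, with a median of -0.675, where that of all genes was 0.005, and no scaling changed the sign of any of them. The 36 subunits summed to 7850.5, 6853, 6237 and 6824 FPKM in controls and 4516, 5288, 3728 and 4408 FPKM after KD, without overlap, a ratio of the means of 0.646. The 8 assembly factors summed to 236, 210.3, 222 and 203 and 137, 133, 109 and 134 FPKM, a ratio of 0.588. After scaling, neither sum overlapped between the groups. In these bulk samples, fewer cells of a type and less RNA per cell cannot be told apart. The study reports that fewer KD embryos than controls formed blastocysts, while development to the morula stage was unaffected. Whether KD and control embryos of the blastocyst libraries had developed equally far is not stated. A difference in developmental progress and an effect of KD at an equal stage therefore cannot be told apart here. Without the filter on low FPKM, with 34540 genes adjusted together, 17 members were called (35.4%, against 5.99% of all genes). With 1 library left out the count ranged from 21, without control replicate 1 or KD replicate 5 (44.7%, against 17.5% and 18%), to 34.

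Among the core subunits, 4 of 7 fell in blastocysts (57.1%, against 19.8% of all genes), with a median of -0.85. Ndufs8, which carries iron-sulfur clusters of the ubiquinone-binding module, read 207, 225, 196 and 224 FPKM in controls and 109, 125, 87.1 and 108 FPKM after KD (-0.98 ± 0.18, SE, limma adjusted p = 0.00139), without overlap. Ndufv2, which carries the cluster next to the flavin, read 257, 211, 191 and 208 and 121, 126, 103 and 124 FPKM (-0.85 ± 0.19, SE, limma adjusted p = 0.00399). Its KD libraries were close together and all below the controls. Ndufs1, which carries several clusters of the NADH-oxidizing module, read 30.7, 54.0, 68.3 and 55.4 FPKM in controls, with replicate 1 lowest, and 21.7, 20.6, 37.6 and 30.3 FPKM after KD. Its groups overlapped through that control as deposited but not after scaling, and the log2 fold change was -0.87 ± 0.21 (SE, limma adjusted p = 0.007). Ndufs7, Ndufv1 and Ndufs3 did not pass. Ndufs7 read 240.3, 274, 270.4 and 272 FPKM in controls and 254, 218, 226 and 232 FPKM after KD, overlapping through control replicate 1 (-0.18 ± 0.15, SE, limma adjusted p = 0.375). Ndufv1 read 23.5, 46.4, 47.2 and 31.6 FPKM and 29.0, 32.6, 34.0 and 39.2 FPKM, within the range of the controls (-0.09 ± 0.20, SE, limma adjusted p = 0.772). Ndufs3, a scaffold subunit of the ubiquinone-binding module, read 74.0, 105, 86.4 and 84.3 FPKM and 112, 79.4, 106 and 131 FPKM, and was the 1 member of the 47 with a value above 0 (0.29 ± 0.18, SE, limma adjusted p = 0.225).

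In the matrix arm, 5 of 10 accessory subunits fell in blastocysts (50%, against 19.8% of all genes), with a median of -0.56. Ndufs4 fell furthest of all 47 members tested; its loss in mice gives a well-known model of Leigh syndrome. It read 133, 81.9, 82.2 and 98.1 FPKM in controls and 15.7, 21.3, 16.5 and 19.9 FPKM after KD. The highest KD library was far below the lowest control, and the log2 fold change was -2.34 ± 0.22 (SE, limma adjusted p = 1.93e-05). Its level after KD was thus close to that of control morulae, which read 17.8 to 22.7 FPKM. Ndufa2 read 218, 200.0, 196 and 224 FPKM in controls and 94.8, 138, 74.9 and 96.5 FPKM after KD, with KD replicate 4 the highest (-1.07 ± 0.22, SE, limma adjusted p = 0.00245). The 3 other members that fell, named because they are so few, were Ndufa5 (-0.75 ± 0.26), Ndufs6 (-0.73 ± 0.20) and Ndufa9 (-0.44 ± 0.15). Their limma adjusted p were 0.0401, 0.0135 and 0.0419, so those of Ndufa5 and Ndufa9 lay near the threshold. The value nearest 0 was that of Ndufa12, which sits where the flavin module meets the ubiquinone module. It read 376, 344, 291 and 323 FPKM in controls and 322, 373, 195 and 293 FPKM after KD, with overlap (-0.20 ± 0.24, SE, limma adjusted p = 0.554).

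In the proximal membrane arm, 6 of 9 subunits fell (66.7%, against 19.8% of all genes), with values from -1.05 to -0.42 and a median of -0.59. The calls of Ndufa10 and Ndufs5 lay near the threshold (limma adjusted p = 0.0424 and 0.0445). Over all roles, 21 of the 29 calls in blastocysts held with any 1 library left out, and 17 in every alternative. Ndufa1, a small X-linked subunit needed for assembly, read 204, 114, 159 and 139 FPKM in controls and 72.3, 95.6, 65.2 and 58.4 FPKM after KD. No libraries overlapped, although the controls ranged widely (-1.05 ± 0.24, SE, limma adjusted p = 0.00511). Ndufa11, at the other end of the range, read 333, 276, 245 and 304 FPKM in controls and 214, 261, 180.1 and 204 FPKM after KD, where KD replicate 4 lay within the controls (-0.42 ± 0.20, SE, limma adjusted p = 0.12).

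In the distal membrane arm, 7 of 10 subunits fell (70%, against 19.8% of all genes), with a median of -0.87. As DEGs, 4 were lower (40%, against 7.76%). For 9 of the 10, all KD libraries lay below all controls (90%, against 20% of all genes), and for 7 after scaling (70%, against 19.4%). Ndufb3 fell furthest among them, reading 221, 164, 155 and 186 FPKM in controls and 67.3, 91.5, 63.7 and 63.6 FPKM after KD (-1.33 ± 0.21, SE, limma adjusted p = 0.000541). Ndufb4 read 127, 101, 83.9 and 106 FPKM in controls and 46.4, 58.9, 33.2 and 39.1 FPKM after KD (-1.22 ± 0.24, SE, limma adjusted p = 0.00198). Ndufb11, encoded on the X chromosome, read 221, 167, 165 and 167 FPKM and 86.5, 104, 68.9 and 70.2 FPKM (-1.12 ± 0.22, SE, limma adjusted p = 0.0019). In each of these 3 genes the highest KD library, replicate 4, stayed under the lowest control. Ndufb2, the lowest of the subunits in level, read 38.6, 27.9, 28.0 and 34.0 FPKM in controls and 10.7, 19.0, 12.6 and 16.3 FPKM after KD, also without overlap (-1.09 ± 0.22, SE, limma adjusted p = 0.00257). Ndufb9, the most abundant of the 36 subunits in control blastocysts, read 665, 571, 531 and 550.2 FPKM in controls and 308, 390.4, 296 and 339 FPKM after KD (-0.79 ± 0.19, SE, limma adjusted p = 0.00582). Ndufb10 had the value nearest 0, with 291, 256, 205 and 239 FPKM in controls and 184, 229.5, 155 and 193 FPKM after KD, which overlapped (-0.37 ± 0.21, SE, limma adjusted p = 0.18).

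Of the 8 assembly factors, 6 fell in blastocysts (75%, against 19.8% of all genes), with a median of -0.68. As DEGs, 3 were lower (37.5%, against 7.76%). Ndufaf3 read 42.5, 36.7, 36.6 and 39.3 FPKM in controls and 14.1, 16.2, 13.0 and 13.6 FPKM after KD. Both groups were narrow and far apart (-1.38 ± 0.17, SE, limma adjusted p = 0.000125). Ndufaf5 read 12.9, 13.9, 10.0 and 11.6 FPKM in controls and 3.26, 4.51, 4.52 and 5.43 FPKM after KD (-1.27 ± 0.19, SE, limma adjusted p = 0.000368). It was thus lower after KD than in control morulae, which read 5.82 to 8.66 FPKM. Ndufaf6, a factor of early assembly steps, read 25.9, 29.3, 25.5 and 22.4 FPKM and 11.6, 12.8, 10.0 and 11.3 FPKM (-1.10 ± 0.17, SE, limma adjusted p = 0.000584). Ndufaf8, the partner that stabilizes Ndufaf5, read 23.1, 30.9, 37.2 and 37.2 FPKM in controls and 31.6, 34.2, 27.8 and 30.3 FPKM after KD (-0.02 ± 0.17, SE, limma adjusted p = 0.941). Its KD libraries lay inside the range of the controls. The calls of the other 3 factors that fell, Ndufaf1, Ndufaf4 and Ndufaf7, were each lost without control replicate 1 and, separately, without KD replicate 5.

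Ndufa4, now counted with cytochrome c oxidase, was the most abundant member in blastocysts, with 914, 559, 588 and 744 FPKM in control blastocysts and 496, 698, 425 and 575 FPKM after KD. The groups overlapped and it did not pass in any KD comparison (-0.34 ± 0.24, SE, limma adjusted p = 0.298 in blastocysts). Its relative Ndufa4l2, known as a target of hypoxia signalling, was listed at 0 in every library but 1 control of 2-cell embryos at 0.0672 FPKM and was not tested. Of the annotated pseudogenes, Ndufb4c read 45.1, 35.4, 29.0 and 35.7 FPKM in control blastocysts and 17.5, 20.2, 11.7 and 15.5 FPKM after KD (-1.12 ± 0.24, SE, limma adjusted p = 0.00326), but all of its 75-base stretches also occur in another gene, Ndufb4 or Gm16056, so its values may hold reads of Ndufb4. Ndufs6b read 6.41, 5.64, 3.77 and 4.27 and 2.08, 5.04, 3.49 and 4.11 FPKM (-0.38 ± 0.25, SE, limma adjusted p = 0.247). Ndufa11b stayed at or under 1.46 FPKM in every library and was tested in the joint fit of morulae and blastocysts alone.

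**Figure D3:**
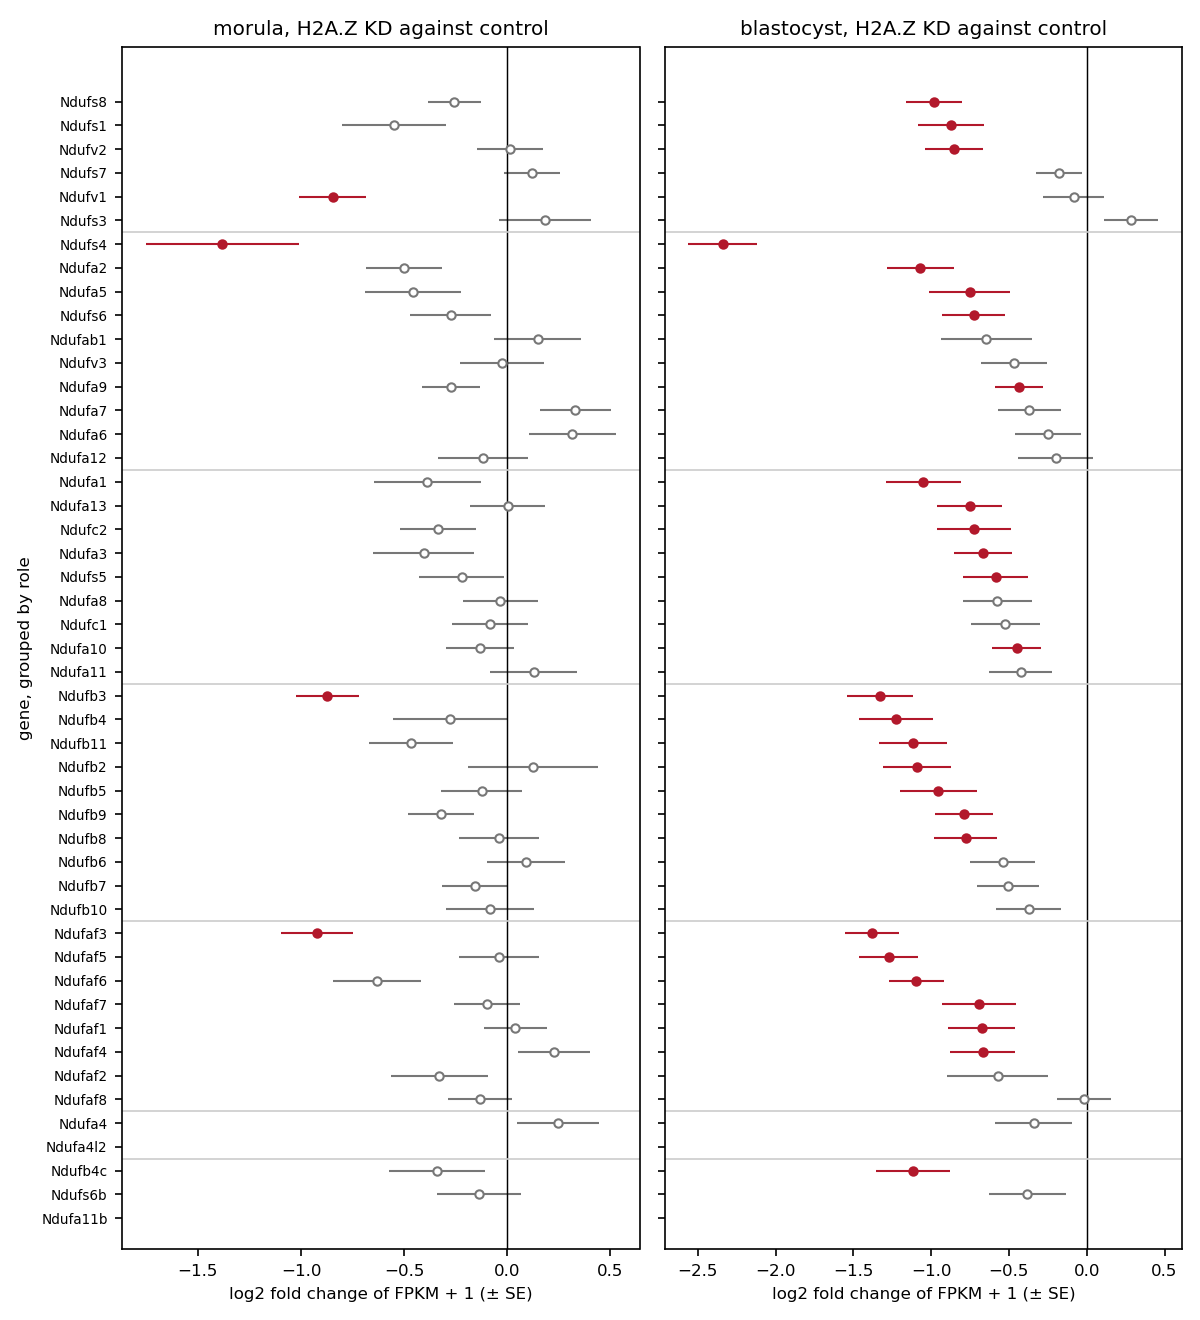
Log2 fold change of H2A.Z KD against control with its SE for 46 of the 47 members tested, in morulae (left) and blastocysts (right), grouped by role; filled red points passed limma at an adjusted p under 0.05 and open grey points did not. In morulae 4 of the members shown passed, all lower, and 9 others change sign under another scaling (5 without scaling, 4 with the upper quartile); in blastocysts 28 of those shown passed, all lower, from -0.44 (Ndufa9) to -2.34 (Ndufs4), and no member changes sign.

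The KD effect was compared between the stages in a single fit of morula and blastocyst libraries, since a call in 1 stage alone does not show a difference. Of 48 members tested, 4 had a KD effect that was lower in blastocysts than in morulae, which is 8.33% against 6.3% of 12727 genes, and 0 had a higher one with limma, against 5.43% (15 lower and 1 higher at an unadjusted p under 0.05, 33.3% of members against 27.3% of all genes). With all libraries the shares were thus near those of all genes, although the median difference was -0.50 for the members and -0.01 for all genes (moved by 0.119 without scaling). The 4 were Ndufaf5, with a difference of -1.26 ± 0.27 (SE, limma adjusted p = 0.00605), Ndufaf4 (-0.93 ± 0.28, SE, limma adjusted p = 0.041), Ndufv2 (-0.91 ± 0.25, SE, limma adjusted p = 0.0249) and Ndufs8 (-0.77 ± 0.22, SE, limma adjusted p = 0.0321). In morulae, Ndufaf5 read 5.55, 8.25 and 6.52 FPKM after KD, overlapping the controls. Ndufaf4, which works with Ndufaf3 and is named for this call, read 20.6, 25.1, 28.4 and 24.7 FPKM in control morulae and 26.6, 28.5 and 24.5 FPKM after KD, against 32.3, 25.3, 23.3 and 23.4 and 15.2, 16.5, 12.6 and 19.7 FPKM in blastocysts. Ndufv2 read 84.8, 106, 103 and 99.0 FPKM in control morulae and 97.0, 87.1 and 88.1 FPKM after KD. Of these calls, that of Ndufaf5 alone held in every alternative; with 1 library left out, the count ranged from 2 to 7, the 7 without blastocyst KD replicate 4 (14.9%, against 7.07% of all genes).

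For Ndufv1, which fell in morulae, the difference between the stages did not pass (0.72 ± 0.26, adjusted p = 0.0816, limma). The same held for Ndufs4 (-0.99 ± 0.46, adjusted p = 0.173, limma) and Ndufb3 (-0.49 ± 0.27, adjusted p = 0.251, limma). In control embryos, Ndufs4 rose by 2.14 on the log2 scale from morula to blastocyst, and its KD effect in blastocysts was -2.34. For Ndufb3 these values were 1.24 and -1.33, and for Ndufs3 -0.20 and 0.29. Other members, named after their values were seen, did not mirror in this way. Ndufa7 had 1.60 and -0.37, Ndufa6 1.55 and -0.25, and Ndufaf7 -0.58 and -0.69. Both comparisons use the same blastocyst controls, which by itself favours opposite signs. They are therefore given side by side, and no relation between them was computed.

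Other genes of the pathway were taken from lists. At the 2-cell stage limma called 0 of the 46 genes tested from these and the marker lists, 1 of which had an unadjusted p under 0.05. Of 13 complex I assembly factors with other names, 6 fell in morulae and 7 in blastocysts, against 9.05% and 19.8% of all genes, and limma called 0 higher in either, with 0 and 1 higher at an unadjusted p under 0.05. The membrane protein Tmem126a read 84.5, 88.8, 64.0 and 60.2 FPKM in control blastocysts and 17.8, 18.8, 14.6 and 18.0 FPKM after KD (-2.02 ± 0.20, SE, limma adjusted p = 2.98e-05). Its relative Tmem126b, part of the complex that assembles the proximal membrane arm, read 29.7, 25.8, 17.9 and 19.9 and 5.84, 7.71, 5.06 and 8.47 FPKM (-1.63 ± 0.24, SE, limma adjusted p = 0.000326). Nubpl, which delivers iron-sulfur clusters to complex I, read 10.0, 9.27, 8.30 and 7.82 and 2.94, 2.43, 2.08 and 2.76 FPKM (-1.46 ± 0.19, SE, limma adjusted p = 0.000137). Aifm1, a flavoprotein of the intermembrane space, read 22.2, 30.2, 34.6 and 23.9 and 8.17, 12.7, 10.2 and 10.3 FPKM (-1.33 ± 0.18, SE, limma adjusted p = 0.000205). In all 4 genes the KD libraries lay below every control. The morula count dropped to 2 without KD replicate 1 or KD replicate 2, to 3 without control replicate 7 or 8, and to 1 without the filter on low FPKM.

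The 7 complex I subunits encoded in mitochondrial DNA were listed apart, and no difference from the nuclear ones was tested. In morulae, 5 of the 7 rose, against 4.22% of all genes, and 0 fell with limma, with 0 lower at an unadjusted p under 0.05. That count was 1 without scaling, and likewise without any 1 of control replicates 7 and 8 and KD replicates 1 and 2, 0 without the filter on low FPKM, and 3 without control replicate 2 or with the length trend removed. In blastocysts, 2 rose and 1 fell, against 16.7% and 19.8% of all genes. mt-Nd1 read 21055, 15313, 15170.1 and 17096 FPKM in control blastocysts and 10028, 10431, 10019 and 10717 FPKM after KD (-0.72 ± 0.20, SE, limma adjusted p = 0.0161). mt-Nd2 read 1775, 1143, 1047 and 1341 FPKM in controls and 2341, 2749.7, 2899.6 and 2986 FPKM after KD (1.08 ± 0.22, SE, limma adjusted p = 0.00232). The KD libraries were thus all below the controls for mt-Nd1 and all above them for mt-Nd2, although both lie on the same strand of mitochondrial DNA. All genes of mitochondrial DNA together took 22.8, 27.0, 20.7 and 21.8% of the summed FPKM in control libraries of 2-cell embryos and 26.9, 22.8 and 26.3% after KD, within the range of the controls. In morulae the KD libraries lay above all controls, with 13.3, 14.4, 14.6 and 13.4% in controls and 17.3, 18.3 and 15.7% after KD. In blastocysts the KD libraries lay on the lower side with overlap, at 20.0, 16.3, 15.2 and 17.1% in controls and 14.6, 14.9, 13.0 and 15.3% after KD. These shares were not tested.

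Complex II, succinate dehydrogenase, is encoded in the nucleus alone and feeds the same ubiquinone pool. Of its 4 subunits, 3 fell in morulae and 3 in blastocysts, beside the same shares of all genes, and limma called 0 higher, also at an unadjusted p under 0.05. Sdhd, a membrane anchor subunit, read 32.3, 38.3, 40.7 and 45.3 FPKM in control morulae and 15.8, 13.9 and 14.9 FPKM after KD (-1.21 ± 0.18, SE, limma adjusted p = 0.00435). In blastocysts it read 209.6, 211, 132 and 148 FPKM in controls and 41.4, 48.1, 32.7 and 32.5 FPKM after KD (-2.13 ± 0.24, SE, limma adjusted p = 5.9e-05), again with no overlap. Of 13 regulators of respiratory chain genes, 10 were tested. In morulae 1 rose and 1 fell, against 4.22% and 9.05% of all genes, and in blastocysts 3 rose and 1 fell, against 16.7% and 19.8%. None of them was a DEG, and the fall in morulae, that of Tfb1m, was lost in most alternatives. Named because they are so few, the mitochondrial transcription factor Tfb2m rose (0.93 ± 0.15 in blastocysts), as did the coactivator Pprc1 (0.79 ± 0.22) and the mitochondrial RNA polymerase Polrmt (0.61 ± 0.16), while Tfb1m, which methylates mitochondrial ribosomal RNA, fell (-0.62 ± 0.18).

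Lineage and stage markers were tested as well. In blastocysts, 1 of 5 trophectoderm markers tested fell, where 19.8% of all genes did, namely Krt18 (-1.02 ± 0.18, SE, limma adjusted p = 0.00126), and the sum of the 6 was 995, 1469, 1303 and 982 FPKM in controls and 571, 731, 766 and 593 FPKM after KD. Of 3 markers of the 2-cell embryo tested there, 2 rose, where 16.7% of all genes did, namely Zfp352 (1.57 ± 0.29, SE, limma adjusted p = 0.00156) and Tcstv3 (2.01 ± 0.56, SE, limma adjusted p = 0.0145), and the sum of the 5 was 2.63, 3.36, 0.428 and 2.07 FPKM in controls and 8.31, 19.1, 4.09 and 27.8 FPKM after KD. In morulae, the markers tested were 3 of the 2-cell embryo, 4 of the trophectoderm and 2 of the inner cell mass. Also tested were 1 primitive endoderm, 2 oocyte and 1 cumulus gene. Of all these, 1 was called, where 9.05% of all genes fell and 4.22% rose. This was Nanog, a factor of the inner cell mass. It read 62.9, 103, 113 and 143 FPKM in controls and 17.9, 11.6 and 32.5 FPKM after KD (-2.23 ± 0.37, SE, limma adjusted p = 0.00645), while 0 of 3 inner cell mass markers passed with limma in blastocysts (1 at an unadjusted p under 0.05) and their sum was 148 ± 48.3 and 188 ± 62.3 FPKM (mean ± SD, n = 4). Limma called 0 of the primitive endoderm, oocyte and cumulus genes tested at any stage after KD, also at an unadjusted p under 0.05. Few of them could be tested. In blastocysts these were 1 of 4 primitive endoderm, 1 of 4 oocyte and 1 of 8 cumulus genes. At the 2-cell stage they were 1, 4 and 2 in the same order. The sums of the whole lists in control and KD blastocysts were 13.0 and 20.0 FPKM, 1.91 and 3.07 FPKM, and 5.44 and 4.97 FPKM. The part of these markers in the lower levels of the complex I genes was not tested.

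The values of some members are uncertain, because reads without strand cannot be assigned where genes overlap. Of the 49 genes, 13 shared at least 50 exonic bases with a gene on the opposite strand, among them Ndufa11, Ndufa13, Ndufa2, Ndufa9, Ndufab1, Ndufaf2, Ndufb11, Ndufb2, Ndufb5, Ndufb6, Ndufs1 and Ndufs3. For Ndufs1 these were 498 bases of Eef1b2 and Ino80dos. On the same strand, Ndufb2, Ndufb8 and Ndufb9 overlapped another gene. At least 10% of the 75-base stretches of Ndufa12, Ndufb4, Ndufb4c, Ndufb9, Ndufs3 and Ndufs5 occurred in another gene, while 32 members shared none. Of the 3 genes with the largest falls in blastocysts, Ndufs4 and Ndufb3 overlapped no other gene, though 3.34% of the 75-base stretches of Ndufb3 occurred in Gm45930, and Ndufaf3 shared 48 bases with Impdh2.

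Members also shared features of position that their choice did not use. Of the 46 members annotated as protein coding, 13 (28.3%) had the start of another coding gene, read in the opposite direction, within 1000 bases upstream, against 6.77% of 22028 coding genes. In blastocysts, 7 of these 13 members fell, against 61.7% of all members tested, with a median of -0.69. Among their neighbours, 11 could be tested, of which 3 fell and 1 rose, with a median of -0.22, where 19.8% of all genes fell and 16.7% rose. Ndufaf5 fell by 1.27 on the log2 scale in blastocysts, whereas its neighbour Esf1, whose start lies 85 bases away, had a value of -0.11. Ndufb3 fell by 1.33, and Fam126b, 61 bases away, had 0.10. In contrast, Ndufa1 (-1.05) fell together with Rnf113a1, 82 bases away (-0.61), and Ndufb9 (-0.79) with Tatdn1, 18 bases away (-0.69). Ndufa4, which did not pass, lies 312 bases from Phf14, which fell by 1.31, and Ndufv3, which did not pass either, lies 135 bases from Wdr4, which rose by 0.85. Neighbours were named after their values were seen.

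Promoter sequences were examined because many members moved together. RefSeq promoters of GRCm38.p6, from 250 bases before to 50 after each start, were found for 40 members in 42 windows, and 4 short motifs, none of which contains another, were searched on both strands, beside all 32851 windows. The NRF1 core CGCNTGCGC occurred in 26.2% of member windows and 6.25% of all windows, and the YY1 core AANATGGCG in 19% and 2.38%. The SP1 core GGGCGG occurred in 52.4% and 35.7%, and the ETS core CCGGAAGT in 2.38% and 3.89%. In blastocysts, where 19.8% of all genes fell, 6 of the 10 members with an NRF1 match fell, with a median of -0.628. Of the 30 without one, 17 fell, with a median of -0.655. For YY1, 4 of 8 with a match fell (median -0.48) and 19 of 32 without (median -0.67). These splits were not tested, and the share that fell among all genes with a match is not given here. A match is a string of letters, not a measured binding site.

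Shown are the 150 bases before the start, 5′ to 3′ on the minus strand of GRCm38.p6 and credited to RefSeq, for 3 members with NRF1 matches in capitals and for 2 of the 3 members that fell furthest. Ndufb4 (chr16:37654369-37654518) holds 2 matches in this stretch, Ndufa8 (chr2:36049339-36049488) 2 and Ndufs6 (chr13:73328483-73328632) 1. Ndufs4 (chr13:114388095-114388244) and Ndufaf3 (chr9:108567437-108567586) hold neither an NRF1, YY1 nor ETS match in this stretch, and Ndufs4 has a YY1 match 35 bases after its start.
Ndufb4: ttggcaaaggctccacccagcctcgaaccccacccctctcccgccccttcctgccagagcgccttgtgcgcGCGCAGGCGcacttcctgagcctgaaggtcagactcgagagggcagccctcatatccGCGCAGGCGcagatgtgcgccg
Ndufa8: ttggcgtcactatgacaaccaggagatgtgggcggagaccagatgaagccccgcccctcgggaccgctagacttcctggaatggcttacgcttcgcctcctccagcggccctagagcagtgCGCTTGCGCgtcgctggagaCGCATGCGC
Ndufs6: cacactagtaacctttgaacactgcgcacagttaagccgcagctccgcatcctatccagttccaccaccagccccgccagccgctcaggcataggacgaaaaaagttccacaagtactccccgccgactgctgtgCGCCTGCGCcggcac
Ndufs4: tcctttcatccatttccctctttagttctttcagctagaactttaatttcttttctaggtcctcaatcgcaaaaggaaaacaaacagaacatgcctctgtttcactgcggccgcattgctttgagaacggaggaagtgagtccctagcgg
Ndufaf3: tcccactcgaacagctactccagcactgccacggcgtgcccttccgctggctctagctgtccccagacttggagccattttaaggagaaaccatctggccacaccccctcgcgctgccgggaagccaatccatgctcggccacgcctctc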

How the data were processed

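RNA-seq values were taken from the table that the authors deposited. Its FPKM come from StringTie 2.1.4, run by the authors on STAR alignments to mm10; DESeq2 and featureCounts, also named in the methods, belong to counts that were not used here. Every value column matched 1 library by its title, and 0 columns were left without a sample. Of 55335 genes, 55154 matched the GRCm38 annotation, among them all 49 members. The members and the lists were chosen with earlier results of these data known.

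Within each comparison, libraries were scaled by their median ratio to the geometric mean, over genes above 0 in all of them (0.943 to 1.09 at the 2-cell stage, 0.912 to 1.17 in morulae and 0.893 to 1.12 in blastocysts within a stage). A pseudocount of 1 was added, log2 values were taken, and genes reaching 1 FPKM in 3 or more libraries were fitted with limma 3.58.1 in R 4.3.3 (lmFit, eBayes with a trend, no covariate, two-sided). Adjusted p-values are Benjamini-Hochberg values over all genes tested. The groups of a comparison were fitted alone, and the difference between stages was the interaction in a fit of both. Figures were drawn with matplotlib 3.10.9 in Python 3.11.15, with pandas 2.3.3 and numpy 2.4.6. The steps were tested on simulated data.

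Depth in reads is unknown. Low values of 13568 single-exon genes fell on whole multiples of a common step, within 0.02 of a step, in 11.4 to 22.8% of cases, so reads were not recovered, and precision is given by the spread between libraries. No 2 libraries had identical values.

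Named were H2afz; the core subunits in blastocysts; every member that was a DEG after KD; in each role the lowest and highest log2 fold change in blastocysts; the most abundant member of control blastocysts; Ndufa4, Ndufa4l2 and members under the filter; mt-Nd1; and up to 4 DEGs of each list by size. The values of 1 member are not reported here; it is counted, but not shown. Other names are said to have been chosen after their values were seen. Alternatives were a pseudocount of 0.1, no filter, no scaling, upper quartile scaling, a batch term from the ranges of replicate numbers, removal of the trend with gene length, the replicate number as a block, 1 fit over all 6 groups and each library left out.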

Additional observations from a re-analysis of the deposited data

Results flagged for a closer look

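In groups of 4 libraries, 62 genes were checked for a library that stood apart from the other 3, by its gap to the nearest one relative to the whole range. This happened in 12 of 248 combinations of gene and group, and chance alone gives about 1 in 20. In control blastocysts, Ndufs7 was low in replicate 1 (240 FPKM) and Ndufb11 high in replicate 1 (221 FPKM). Ndufb3 was low in replicate 2 of control morulae (61.2 FPKM) and high in replicate 4 of KD blastocysts (91.5 FPKM), and Ndufaf1 was low in replicate 1 of control morulae (25.8 FPKM). In control 2-cell embryos, Ndufa7 was high in replicate 1 (17.8 FPKM), Ndufc1 in replicate 5 (10.8 FPKM) and Ndufa4l2 in replicate 5 (0.0672 FPKM, the others at 0). In the same group, mt-Nd1 (8760 FPKM) and mt-Nd2 (2560 FPKM) were high in replicate 2, and Nanog (0.422 FPKM) and Aifm1 (16.3 FPKM) in replicate 4.

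The KD effect in blastocysts differed from that in morulae by the limma interaction for 4 members, by -1.26 on the log2 scale for Ndufaf5, -0.93 for Ndufaf4, -0.91 for Ndufv2 and -0.77 for Ndufs8. Among the other genes named, it differed by -1.18 for Tmem126a, -1.14 for mt-Nd1, -0.79 for Aifm1 and 2.49 for Nanog.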

How the results depend on the processing

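No called member changed sign under any alternative. Called members that stayed called in all of them numbered 1 of 5 in morulae, 17 of 29 in blastocysts, 41 of 43 from the 2-cell to the morula stage, 34 of 37 from morula to blastocyst and 1 of 4 for the difference between stages. With any 1 library left out, these were 3, 21, 42, 34 and 1. Members lower in morulae (5) became 1 without the filter, with more genes adjusted together, and 10 without scaling; DEGs lower there (2) became 0 without the filter and 1 with the length trend removed. Members lower in blastocysts (29) became 17 without the filter. From the 2-cell to the morula stage, members lower (1) became 2 without scaling and 3 with the length trend removed. Members with a lower KD effect in blastocysts than in morulae (4) became 1 without the filter. With each library left out in turn, members lower in morulae ranged from 3 to 12 and DEGs lower from 1 to 3; DEGs lower in blastocysts (12) from 6, without KD replicate 5, to 14; members lower from morula to blastocyst (1) from 0, without blastocyst control replicate 6, to 1; and the difference between stages from 2 to 7 lower, with 7 without blastocyst KD replicate 4, and from 0 to 1 higher, the 1 without blastocyst control replicate 5. The cause of these shifts was not tested, apart from the number of genes or libraries. Control and KD libraries share replicate numbers, but deviations from the group means of same-numbered libraries correlated across genes by 0.015 to 0.214 at the 2-cell stage, 0.094 to 0.181 in morulae and -0.11 to 0.353 in blastocysts, so the numbers were not taken as pairs. Libraries from the same range of numbers were more alike at the first 2 stages, from -0.021 to 0.214 in 2-cell embryos (-0.237 to 0.01 across ranges) and from 0.094 to 0.346 in morulae (-0.278 to -0.094 across ranges). In blastocysts the values ran from -0.341 to 0.353 within and from -0.381 to 0.401 across ranges. With these ranges as a batch term, limma called 0 members in 2-cell embryos, as it called 0% of all genes. In morulae 6 were lower (12.8%, against 11.5% of all genes) and in blastocysts 31 (66%, against 20.7%). A lower KD effect in blastocysts than in morulae was called for 3 (6.25%, against 5.96%). With the replicate number as a block, 1 member was higher in morulae (2.13%, against 5.87% of all genes), in place of 0. There 6 were lower (12.8%, against 8.91%), and 35 were lower in blastocysts (74.5%, against 20.8%). The depth in reads is unknown, so small differences of low genes such as Ndufa11b and Ndufs6b cannot be judged.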
